A study of Mus musculus with 4 samples.

Results

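The 7 genes described here, Gli1, Gli2, Gli3, Ptch1, Smo, Sufu and Hhip, encode the receptors, transducers and transcription factors with which a cell answers Hedgehog. They are 7 of the 21536 protein-coding genes for which a transcription start site was found. They were chosen by name, and their accessible regions were taken as all ATAC-seq peaks that touch the 100 kb on either side of each start site. These windows held 149 of 99356 E10.5 peaks and 61 of 37413 E11.5 peaks, counting the numbered chromosomes, X and Y.

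ATAC-seq uses the Tn5 transposase to insert sequencing adaptors into accessible DNA. It was applied to limb cells of wild-type mouse embryos at E10.5 and E11.5 (E, embryonic day), as the sample titles name the stages, with 2 replicates each. In the treatment protocol the younger embryos are called E10. Fore- and hindlimbs carry a single label in every sample, and the cells were freed with trypsin and fixed with paraformaldehyde before lysis, with no sort or gate named. The series concerns the elements that keep En1 expressed in the limb. The Hedgehog genes were not its stated subject.

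In the limb bud, Sonic hedgehog is made at the posterior margin and spreads through the mesenchyme. Its receptor Ptch1 holds Smo inactive until ligand binds. Active Smo, in the primary cilium, releases Gli2 and Gli3 from Sufu and stops Gli3 from being cut into a repressor, the form that prevails in the anterior limb bud. Gli1, Ptch1 and Hhip are induced by the pathway and serve as its classical readouts, and Ptch1 and Hhip restrain it in turn by binding ligand.

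The data were 1 deposited peak list per stage, each named for both replicates. There was thus no spread between replicates, no test between stages and no depth per sample. Each peak carries the authors' own signal value, which sets its rank here, and the authors' −log10 p. The smallest signal values were 200.002 in the E10.5 list and 200.006 in the E11.5 list. It is not stated whether the values of the lists share a scale, so they are printed side by side and no ratio is taken. In bulk tissue, a larger share of cells with accessible DNA and more accessible DNA per cell cannot be told apart. The promoters of the limb mesenchyme genes Hand2, Grem1 and Hoxd13 each held a peak in both lists, as did those of most protein-coding genes (68.5% at E10.5, 62.6% at E11.5). This is therefore a weak check of the labelled tissue, and markers of other tissues were not examined here.

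Promoter sequences were found for 6 of the 7 genes in a RefSeq table of assembly GRCm38.p6, which has mm10 coordinates. Gli1 was the gene without an entry. The table gives 250 bases before and 50 after a start. Below are the bases before the start of the activator and repressor Gli3, the transducer Smo and the decoy receptor Hhip, shown because they cover the range of the search described next. Capitals mark the GC box, GGGCGG or CCGCCC on the opposite strand, which zinc finger factors of the Sp family bind. They lie at chr13:15463473-15463722 (Gli3, plus strand), chr6:29735247-29735496 (Smo, plus strand) and chr8:80058061-80058258 (Hhip, minus strand). For Hhip the run ends 53 bases before the start, where the outer end of the annotated gene begins.
Gli3: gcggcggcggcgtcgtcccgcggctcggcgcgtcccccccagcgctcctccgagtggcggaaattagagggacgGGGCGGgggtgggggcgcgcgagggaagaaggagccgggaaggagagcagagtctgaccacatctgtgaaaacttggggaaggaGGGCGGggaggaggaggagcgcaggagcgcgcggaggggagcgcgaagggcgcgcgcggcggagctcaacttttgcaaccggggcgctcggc
Smo: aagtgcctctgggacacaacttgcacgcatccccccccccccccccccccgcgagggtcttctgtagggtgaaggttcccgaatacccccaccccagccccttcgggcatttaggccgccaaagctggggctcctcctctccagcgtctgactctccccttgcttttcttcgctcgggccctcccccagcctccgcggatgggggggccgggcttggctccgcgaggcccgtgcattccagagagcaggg
Hhip: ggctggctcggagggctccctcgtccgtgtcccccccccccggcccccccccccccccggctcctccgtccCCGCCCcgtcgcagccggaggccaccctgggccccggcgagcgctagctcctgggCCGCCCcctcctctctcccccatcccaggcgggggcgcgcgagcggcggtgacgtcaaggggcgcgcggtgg

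The GC box was present in 5 of the 6 promoters, all but that of Smo, against 35.7% of the 32851 promoters in the table. These include promoters without a peak, and no motif share was taken over promoters with a peak alone. Of the promoters printed, Gli3 and Hhip held 2 each and Smo held 0. The Gli motif was searched as GACCACCCA on both strands. It shares a run of C with the GC box on the opposite strand, so matches of these motifs could overlap. It had 0 exact matches in the 6 promoters, and 0.253% of all promoters held one. With 1 mismatch allowed, the count was again 0 of 6, and 6.74% of all promoters had such a match. These counts say only that the letters are not in these windows. The CCAAT box, CCAAT on either strand, was found in Sufu alone, against 37.4% of all promoters. TATAAA was found in 0 of 6, against 13.6% of all promoters.

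The promoters were rich in CpG dinucleotides. Over the whole window of the table Ptch1 held 47, Gli3 39, Hhip 30, Gli2 28, Smo 17 and Sufu 12, beside a median of 7 over the table. Promoters of protein-coding genes with a peak in both lists had a median of 20 (n = 14022), and those with a peak in neither list had 2 (n = 5887). Smo and Sufu thus lay below the median of the first class, and the other 4 lay above it. GC content ran from 56.3% in Sufu to 76.3% in Ptch1.

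All 7 genes had a peak within 1 kb of the start site in both lists. Of all protein-coding genes, 68.5% had such a peak in the E10.5 list and 62.6% in the E11.5 list. The promoters did not stand at one level. By signal, those of Gli2, Ptch1, Gli3 and Gli1 lay between the top 0.0393% and the top 0.373% of the E10.5 list. Sufu followed at 2.84%, Smo at 3.37% and Hhip at 12.0%. The order in the E11.5 list was Gli3, Ptch1, Gli2, Gli1, Sufu, Smo and Hhip, by the strongest promoter peak of each gene. For Gli1 that peak (top 11.3%) began 278 bp downstream of the start, which is the outer end of the gene. The E11.5 peak over the Gli1 start stood at the top 29.4%, between Smo (14.4%) and Hhip (31.1%).

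This order rests on the value ranked, since signal grows with peak width. By signal per bp, Sufu came first at E10.5 (5.32 per bp, top 0.709%), followed by Ptch1 (4.32), Smo (4.27), Gli3 (4.23), Gli1 (3.87) and Gli2 (3.32, top 9.36%). At E11.5 Sufu also led per bp (3.47, top 6.66%), with Gli3 next (2.96, top 12.2%). The Sufu peak of each list also lies within 1 kb of the start of the neighbouring gene Actr1a, so this lead is not that of Sufu alone. By −log10 p, Smo led at E10.5 (14.8, top 0.939%) and Gli3 at E11.5 (11.2, top 4.21%). Hhip came last of the 7 by all 3 values in both lists, with 1.83 and 1.23 per bp. The median signal of peaks at protein-coding promoters was 4227 in the E10.5 list and 2693 in the E11.5 list, and Hhip was close to the first and below the second.

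**Figure D1:**
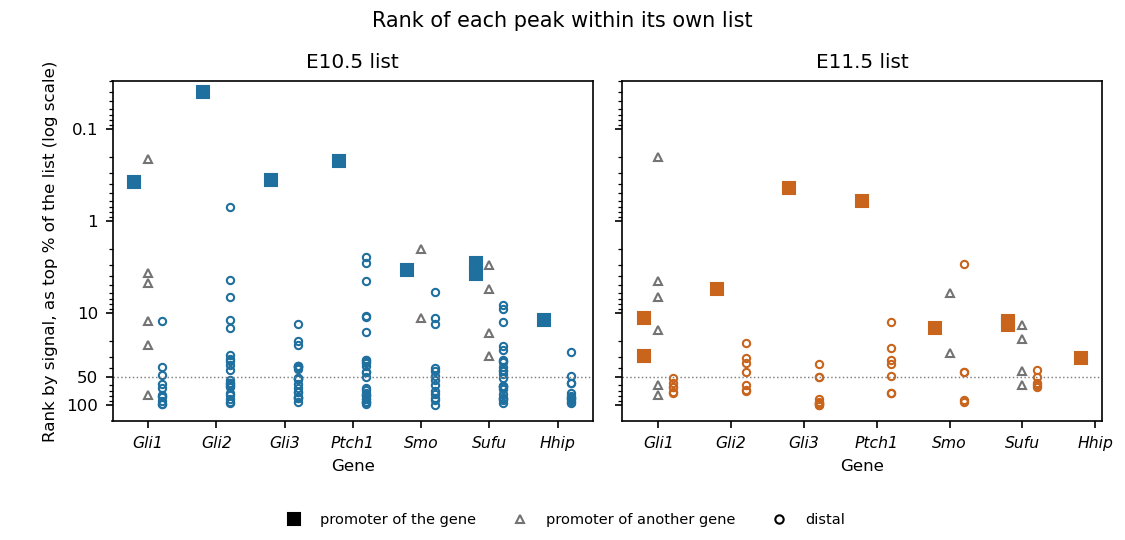
Rank of every peak within 100 kb of the 7 start sites, as top percent of its own list by signal (log axis, strongest at the top; the dotted line is the median peak). Filled squares are peaks within 1 kb of the gene's own start, triangles are promoters of neighbouring genes and circles are distal peaks; Gli2 at E10.5 stands highest at the top 0.0393%, and Hhip has the lowest promoter rank among the genes' strongest promoter peaks in both lists.

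Ptch1, the receptor and itself a target of the pathway, had a promoter peak over its start at chr13:63565735 (minus strand). It spanned chr13:63562976-63567094 in the E10.5 list with a signal of 17809, −log10 p of 11.6, rank 222 or the top 0.223%. In the E11.5 list it spanned chr13:63563007-63567091 with a signal of 9905, −log10 p of 9.40, rank 225 or the top 0.601%. The intervals are nearly the same, 4119 bp and 4085 bp wide, and both are broad: 2.05% and 0.196% of the promoter peaks of their lists were wider. Their summits were not at the same place. The E10.5 summit lay 635 bp upstream of the start and the E11.5 summit 2349 bp downstream, 2984 bp apart. Over the 13113 E10.5 promoter peaks with an overlap, the median distance to the summit of the overlapping peak was 22 bp and the 90th percentile 263 bp. At the other 6 genes this distance was between 0 and 78 bp. A summit is 1 base of a broad peak, and no replicate spread was at hand to judge a shift.

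The strongest distal peaks of Ptch1 surrounded this promoter. Here distal means more than 1 kb from every protein-coding start. In the E10.5 list they were chr13:63524041-63526667 (signal 9217, top 2.46%), 39.1 kb downstream and inside Ptch1, and chr13:63567263-63569811 (8806, top 2.83%), 1.53 kb upstream. The next was chr13:63527926-63529813 (7383, top 4.51%), 35.9 kb downstream in the gene. Each overlapped an E11.5 peak, but the order differed. At E11.5 the upstream peak chr13:63567385-63569556 came first (3961, top 12.5%), followed by chr13:63572334-63573980 (2371, top 24.0%) and chr13:63528183-63529140 (1562, top 32.8%). The peak that led at E10.5 had an E11.5 counterpart at chr13:63524725-63526240 with a signal of 783 (top 47.9%) and the same summit, 40243 bp downstream of the start. The second E11.5 peak covers the outer end of the annotated gene at chr13:63573460, 7725 bp upstream of the start used here, and its E10.5 counterpart chr13:63572090-63574043 had a signal of 4733. Transcripts of Ptch1 are known to begin at alternative first exons, and the mm10 exons were not used here.

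Hhip, the membrane-anchored decoy that binds Hedgehog ligand, had the weakest promoter peak of the 7 and the fewest peaks around it. The peak was chr8:80056496-80058876 in the E10.5 list (signal 4365, −log10 p 7.71, rank 11923, top 12.0%). In the E11.5 list it was chr8:80057151-80058532 (signal 1698, −log10 p 5.65, rank 11621, top 31.1%). Their summits lay 45 bp downstream and 33 bp upstream of the start at chr8:80058008 (minus strand).

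The E10.5 list held 12 distal peaks around Hhip, of which 9 lay in the gene, and none overlapped an E11.5 peak. Over the whole E10.5 list 22.6% of distal peaks overlapped. These 12 were weak, with signals from 227 to 2042, and all peaks of the same 10% steps of the list by signal overlapped in 11.6% on average, so a count of 0 among 12 is near that background. The strongest were chr8:79982192-79983527 (2042, top 26.2%), 74.5 kb downstream, chr8:79974423-79974788 (885, top 48.3%) and chr8:80032636-80033216 (663, top 57.6%), all inside Hhip. No distal E11.5 peak lay within 100 kb of the Hhip start, so the promoter peak was the only E11.5 peak there. The median protein-coding gene had 5 E11.5 peaks in such a window, and 11.8% of genes had fewer than the 1 of Hhip.

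Smo, the transmembrane transducer that Ptch1 inhibits, had its promoter peak at chr6:29734802-29736739 in the E10.5 list (signal 8284, −log10 p 14.8, top 3.37%). The E11.5 peak was chr6:29735175-29736647 (3654, −log10 p 9.03, top 14.4%). Both summits lay on the start at chr6:29735497 (plus strand), at 4 bp and 0 bp. The peak that stood out in the E11.5 list was not the promoter. It was chr6:29747657-29749214, inside Smo and 12.2 kb downstream of its start, with a signal of 6831 and rank 1107 (top 2.96%). Its E10.5 counterpart, chr6:29747679-29749176, had nearly the same bounds, a signal of 6612 and a rank in the top 5.86%. By signal it was the strongest distal E11.5 peak at any of the 7 genes, and the only one to outrank the promoter peak of its gene.

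The other strong peaks near Smo belonged to neighbours. The promoter of Ahcyl2, 32.1 kb downstream, had signals of 9790 and 5425 in the E10.5 and E11.5 lists, and that of Tspan33 had 4532 and 2050. Of the distal peaks, chr6:29710245-29712500 in Tspan33 was next in the E10.5 list (4558, top 11.3%) and had no E11.5 overlap. It was followed by chr6:29717610-29719605 (4077), which overlapped an E11.5 peak of 228. At E11.5 the next were chr6:29701081-29701436 (928) and chr6:29697571-29697885 (916), over E10.5 peaks of 303 and 448. Tspan33 thus held 2 of the 3 leading distal peaks of Smo in each list, but not at the same places.

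Sufu, the cytoplasmic protein that binds and restrains the Gli factors, had 2 promoter peaks in each list. One covered the start at chr19:46396896 (plus strand): chr19:46396419-46398072 in the E10.5 list (signal 8796, −log10 p 14.0, top 2.84%) and chr19:46396631-46397780 in the E11.5 list (3989, −log10 p 9.59, top 12.3%). The other lay upstream in the neighbouring gene Actr1a: chr19:46394692-46396316 (7968, top 3.73%) and chr19:46395034-46396276 (3765, top 13.6%). Its summit was at the same base in both lists, 1694 bp upstream of the Sufu start. Both peaks also lie within 1 kb of the Actr1a start, so neither can be given to Sufu alone.

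Beyond 1 kb of Sufu the highest signals again lay at other promoters. That of Nfkb2 had signals of 8608 and 3809 in the E10.5 and E11.5 lists, and that shared by Psd and Fbxl15 had 6789 and 2938. The strongest distal E10.5 peaks were chr19:46443230-46444595 (5577, top 8.21%) and chr19:46421335-46423253 (5252, top 9.02%), 46.3 kb and 24.4 kb downstream inside Sufu. The next was chr19:46348289-46349512 (4269, top 12.4%), 47.4 kb upstream in 2310034G01Rik. At E11.5 the last of these led the distal peaks (1024, top 41.6%), while the 2 inside Sufu had signals of 471 and 498. Near Nfkb2 and Fbxl15, 2 further distal E11.5 peaks stood at 737 and 562.

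Gli2, the main activator among the Gli factors, had the highest promoter signal and the widest promoter peak of the 7 in the E10.5 list. It spanned chr1:119047240-119055397, 8158 bp, with a signal of 27051, −log10 p of 12.6, rank 39 or the top 0.0393%. Only 0.0908% of E10.5 promoter peaks were wider. Per bp its signal was the second lowest of the 7, and by −log10 p it stood below Gli1, Gli3, Smo and Sufu. At E11.5 this stretch held 3 peaks. The one over the start was chr1:119051875-119054421, with a signal of 5651, −log10 p of 9.08, rank 2043 or the top 5.46%, and the others were chr1:119047474-119048908 (1747) and chr1:119049799-119050459 (387). Summits of the main peaks lay 81 and 83 bp upstream of the start at chr1:119053619 (minus strand).

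Gli2 also had the strongest distal peak of the E10.5 list near any of the genes. This was chr1:118980722-118984924 (signal 13355, rank 700, top 0.705%), 68.7 kb downstream of the start and within Gli2. It was followed by chr1:119032997-119035180 (7504, top 4.33%), 18.4 kb downstream in the gene, and chr1:119082153-119084317 (6220, top 6.66%), 28.5 kb upstream between genes. All overlapped an E11.5 peak. At E11.5 the first of them also led, as chr1:118981740-118983599 (2704, top 21.2%), with its summit 71039 bp downstream of the start against 71038 bp at E10.5. Next came the 1747 peak beside the promoter and chr1:119001416-119002192 (1417, top 34.7%), whose E10.5 counterpart had a signal of 4379 and the same summit. The strongest distal E10.5 peak of Gli2 without an E11.5 overlap was chr1:118954522-118956709 (3707, top 14.7%), 96.9 kb downstream, a peak picked out after its value was seen.

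Gli3, the main repressor of the anterior limb bud, had a promoter peak near the top of both lists. It was chr13:15461662-15465439 in the E10.5 list (signal 15970, −log10 p 13.7, rank 352, top 0.354%). In the E11.5 list it was chr13:15461835-15465421 (10604, −log10 p 11.2, rank 164, top 0.438%). Of the 7 genes it had the highest E11.5 promoter rank by signal and by −log10 p, and the second highest per bp. Summits lay 452 and 480 bp upstream of the start at chr13:15463723 (plus strand). Its distal peaks were modest beside it. The strongest at E10.5 was chr13:15543657-15545876 (4093, top 13.1%), 79.9 kb downstream inside Gli3. It was followed by chr13:15394962-15395677 (2725, top 20.2%), 68.0 kb upstream in Gm20043, and chr13:15445674-15446647 (2458, top 22.3%), 17.1 kb upstream between genes. The same 3 places led in the E11.5 list, in another order, with signals of 730, 718 and 1362. Another 7 of the 11 E11.5 peaks at Gli3 had signals between 201 and 266, next to the smallest of the list. No Gli3 peak of either list was the promoter of another protein-coding gene.

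Gli1, the activator that is itself a pathway target, had a single broad promoter peak in the E10.5 list and a pair in the E11.5 list. The E10.5 peak was chr10:127338725-127342799, with a signal of 15788, −log10 p of 12.8 and rank 371 (top 0.373%). Its summit lay 2489 bp downstream of the start at chr10:127341579 (minus strand), inside the gene. The E11.5 peaks within its bounds were chr10:127338904-127341301 (4173, −log10 p 6.97, top 11.3%) and chr10:127341404-127342766 (1836, −log10 p 5.84, top 29.4%). The first of these had its summit 2546 bp downstream, 57 bp from the E10.5 summit, and the second covered the start itself.

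Around Gli1 the strong peaks were promoters of other genes. The 3 highest beyond 1 kb, in both lists, were those of Mbd6 and Ddit3 (signals of 18054 and 12584 in the E10.5 and E11.5 lists), R3hdm2 (8011 and 6033) and Mars1 (7224 and 5234). They lay between 28.9 and 49.8 kb from the Gli1 start. The distal peaks were weaker. The strongest at E10.5 was chr10:127325487-127327428 in Arhgap9 (4316, top 12.2%), 14.2 kb downstream, which overlapped a pair of E11.5 peaks of 453 and 372. The next were chr10:127262818-127263427 (1247) and chr10:127255888-127256360 (902) in Kif5a. At E11.5 the leading distal peaks were chr10:127262870-127263393 (710), chr10:127291949-127292289 in Ddit3 (563) and the Arhgap9 peak of 453. A single distal E10.5 peak lay inside Gli1 itself, with a signal of 366, and it had no E11.5 overlap.

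**Figure D2:**
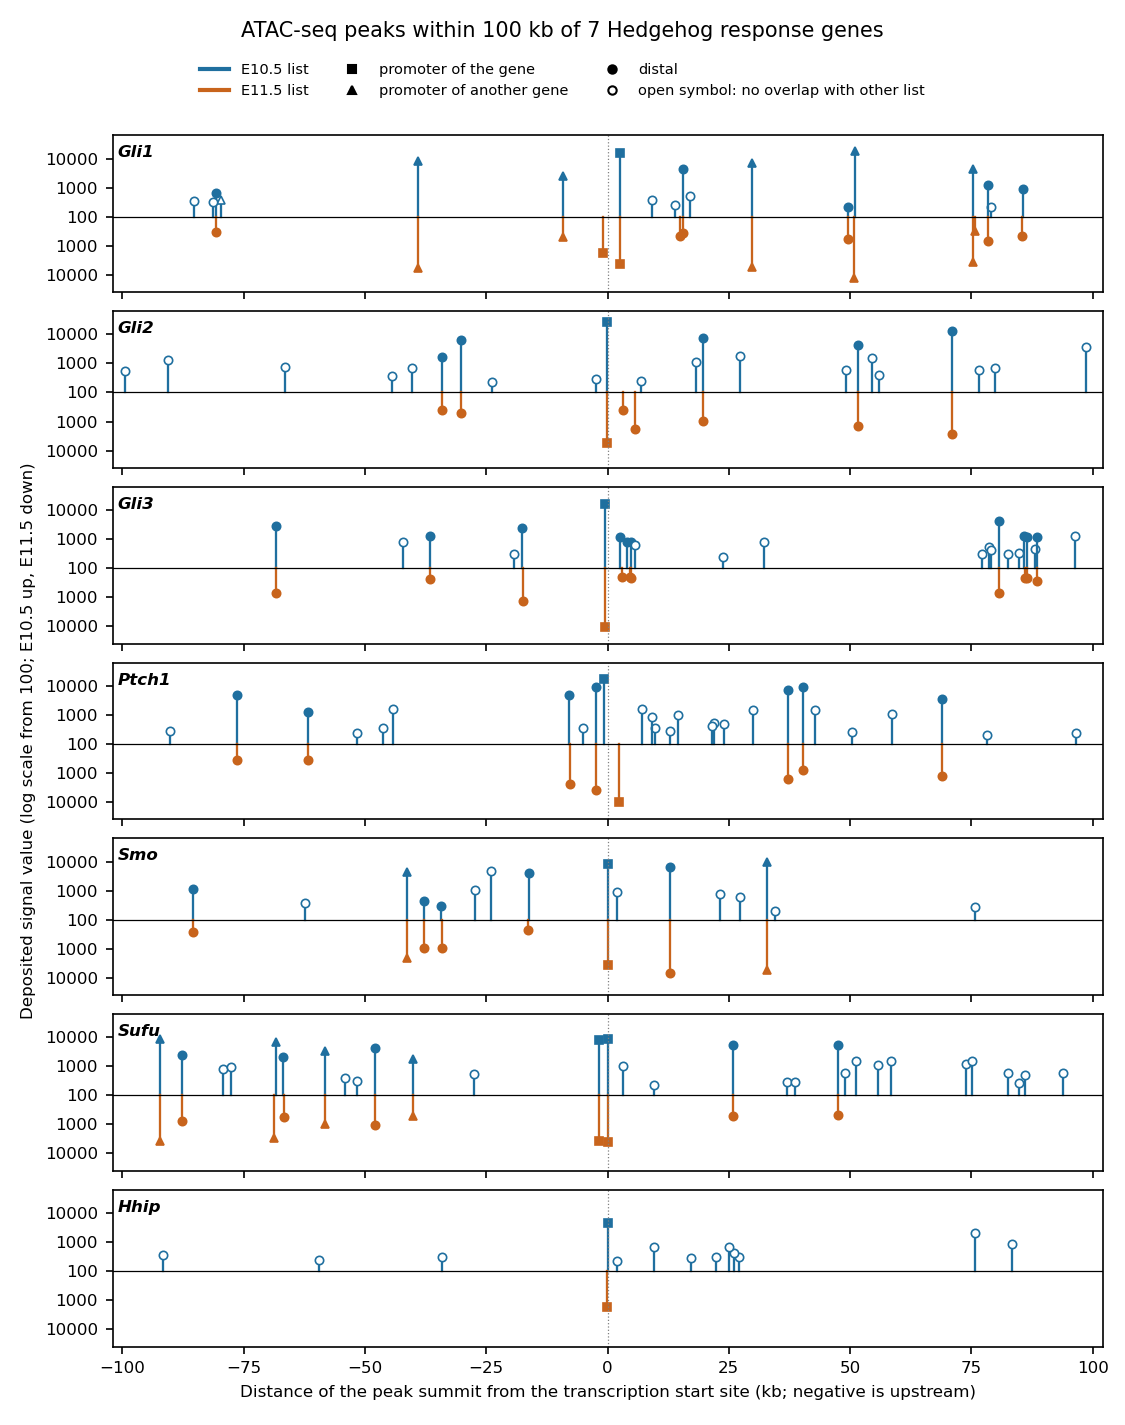
Every peak within 100 kb of each start, by the distance of its summit from the start in kb (negative is upstream) and its deposited signal (log scale from 100), with the E10.5 list drawn upward and the E11.5 list downward. Open symbols, all on the E10.5 side, mark peaks with no overlap; at Hhip 12 open circles stand above an E11.5 side that holds the promoter peak alone.

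The number of peaks in a window differed between the genes. In the E10.5 list Sufu had 30, Ptch1 27, Gli3 23, Gli2 22, Gli1 18, Smo 16 and Hhip 13, beside a median of 10 (interquartile range 4 to 17) over protein-coding genes. In the E11.5 list Gli1 had 14, Gli3 and Sufu 11 each, Gli2, Ptch1 and Smo 8 each, and Hhip 1, beside a median of 5 (2 to 8). For Sufu and Ptch1 at E10.5, 96.1% and 93.5% of genes had fewer peaks, and for Gli1 at E11.5 92.1% had fewer. This order depends on what is counted. With −log10 p of at least 5, the E10.5 numbers were 20 for Sufu, 17 for Gli3 and 14 for Ptch1, and the E11.5 numbers 10 for Sufu and 9 for Gli1. With only peaks nearest to the gene's own start, Ptch1 had 24 and Sufu 9 at E10.5, and at E11.5 Gli3 had 11 and Gli1 2. The places peaks took also differed. All E10.5 peaks near Gli2, Gli3 and Hhip had that gene's start as the nearest protein-coding start, against 24 of 27 at Ptch1, 9 of 30 at Sufu, 4 of 16 at Smo and 2 of 18 at Gli1. Counts for Gli1, Smo and Sufu are thus largely counts of their neighbours' surroundings.

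Of the 149 E10.5 peaks, 8 were promoter peaks of the 7 genes, 12 were promoters of other genes and 129 were distal. Of the 61 E11.5 peaks these numbers were 9, 12 and 40. Distal peaks inside the gene itself numbered 73 of 129 and 19 of 40. They were spread unevenly: Gli3 had 17 and 7, Ptch1 16 and 4, Sufu 15 and 2, Gli2 12 and 5, Hhip 9 and 0, Smo 3 and 1, and Gli1 1 and 0. These counts were not adjusted for gene length, and the genes fill unequal parts of their windows, Gli1 the least. The median signal of the peaks in the windows was 834 (E10.5) and 916 (E11.5), beside 838 and 722 over the whole lists.

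All 61 E11.5 peaks overlapped an E10.5 peak by at least 1 bp (95% Wilson interval from 94.1%), beside 91.8% of the whole E11.5 list. There was therefore no E11.5 peak of these genes without an E10.5 counterpart. Of the 149 E10.5 peaks, 56 overlapped an E11.5 peak, which is 37.6% (30.2 to 45.6%), beside 32.3% of the whole E10.5 list. The interval contains the share of the whole list. For distal peaks the counts were 37 of 129 at E10.5, beside 22.6% of such peaks in the list, and 40 of 40 at E11.5, beside 87.7%. All peaks of the same 10% steps by signal, promoters included, overlapped in 26.3% (E10.5) and 89.6% (E11.5) on average. Intervals cover counting error only and treat neighbouring peaks as independent.

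In the E10.5 list overlap went with signal, in the windows as over all peaks. Among the 10% of E10.5 peaks with the highest signal, 22 of 22 peaks of the 7 genes overlapped, beside 96.7% of all peaks there. In the next 40% it was 28 of 52, or 53.8%, beside 47.3%. In the lower 50% it was 6 of 75, or 8%, beside 7.39%. The E10.5 share thus lay near that of all peaks of like signal in each range. In the E11.5 list the counts for the same ranges were 8 of 8, 26 of 26 and 27 of 27. Over the whole E11.5 list these shares were 99.9%, 96.3% and 86.5%. Depth per sample is unknown, and its part in the number of weak peaks was not tested.

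As counted in single lists without replicate spread, this share varied from gene to gene. At E10.5 it was 61.1% for Gli1 (38.6 to 79.7%), 50% for Smo, 47.8% for Gli3 (29.2 to 67.0%), 36.7% for Sufu, 29.6% for Ptch1, 27.3% for Gli2 (13.2 to 48.2%) and 7.69% for Hhip (1.37 to 33.3%). The lists were cut into steps of 10% by signal, and the share over all peaks of the same step, averaged over each gene's peaks, was 39.7% for Gli1, 40.4% for Smo, 25.5% for Gli3, 39.6% for Sufu, 34.1% for Ptch1, 37.1% for Gli2 and 17.0% for Hhip. The intervals of 6 genes contained their values, that of Gli1 narrowly, and that of Gli3 lay above its value. The Gli3 share rested on weak E11.5 peaks. With −log10 p of at least 5 in both lists it was 3 of 17, or 17.6% (6.19 to 41.0%). The whole E10.5 list so filtered had 32.4%, a share not matched by signal. For Gli1 it was then 8 of 10, or 80% (49.0 to 94.3%), with an interval above 32.4%. That comparison was not matched by promoter or distal class either. Of the 18 unfiltered E10.5 peaks of Gli1, 6 were promoters of other genes and 1 its own. Over the whole unfiltered E10.5 list, 85.0% of peaks at protein-coding promoters overlapped. The 80% is therefore largely a share of neighbours' promoters and does not describe Gli1 alone. The filtered E10.5 intervals of the other genes contained 32.4%. At E11.5 Smo then had 4 of 6, or 66.7% (30.0 to 90.3%), beside 94.2% of the whole list so filtered. All E11.5 peaks so filtered at the other genes overlapped. Without this filter, the intervals of neighbours in the E10.5 order overlapped, a weak check because sorting places like shares side by side.

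**Figure D3:**
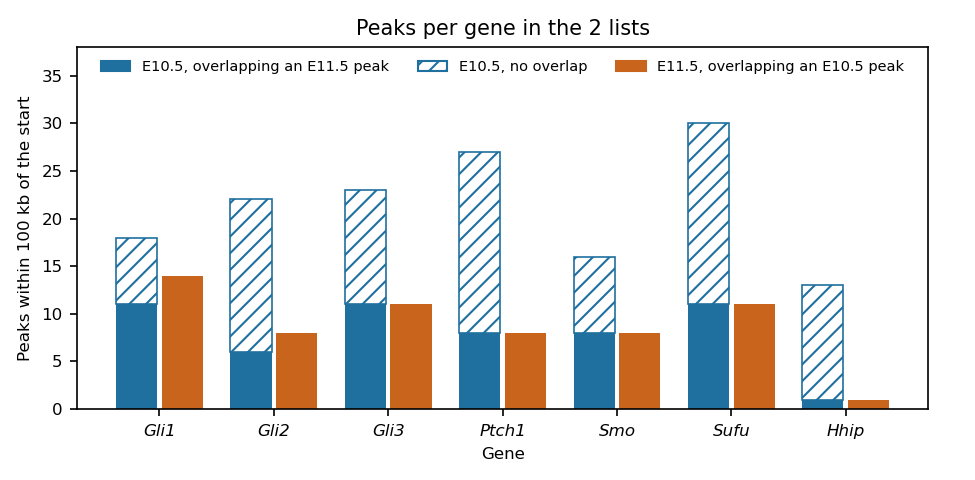
Peaks within 100 kb of each start in the E10.5 list (blue, filled where they overlap an E11.5 peak, hatched where not) and the E11.5 list (orange, all of which overlap). The hatched part is largest for Ptch1 and Sufu at 19 peaks each, and Gli1 is the gene with the closest totals, 18 and 14.

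Other genes of the pathway were taken from a list of 35, and 33 had a promoter peak in the E10.5 list and 32 in the E11.5 list (94.3% and 91.4%), beside 68.5% and 62.6% of all protein-coding genes. All 8 limb targets, all 6 kinases and degradation factors and 9 of 10 genes of the cilium and transduction had one in both lists. Among ligands and genes of ligand release it was 6 of 6 and 5 of 6. Ihh, the ligand of developing cartilage, was the gene with a promoter peak in 1 list only, at E10.5 (signal 1275, top 37.8%). Cdon, a co-receptor, and Gpr161, a ciliary receptor that restrains the pathway, had none in either list at the start used. With starts placed at the outer end of the annotated gene, a choice made after the data were seen, both had peaks and the counts were 35 and 34.

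Of the genes with a promoter peak, the ligands Shh and Dhh had the lowest ranks in both lists. The promoter of Shh, whose product comes from a small posterior group of limb cells, had signals of 649 (top 58.2%) and 228 (top 93.5%) in the E10.5 and E11.5 lists. Dhh had 485 (top 68.0%) and 201 (top 99.8%). The co-receptor Gas1 had 20599 (top 0.128%) and 5794 (top 5.07%), a higher rank than any other receptor or co-receptor of the list. Among limb targets, Jag1 (18130 and 12504) and Cdk6 (15710 and 10474) lay between the top 0.204% and the top 0.468% in both lists, and Ccnd1 had 22742 (top 0.0845%) and 2599 (top 22.0%). Hand2 had 10154 and 4959, and Grem1, which keeps the ridge signals going, had 8612 and 4790. Bmp2 had 10549 and 5468. Lower E11.5 ranks were those of Hoxd13 (7425 and 1545, top 33.0% at E11.5) and Foxf1 (7681 and 431, top 66.3% at E11.5). The genes given with values in this paragraph were picked after those values were seen. By signal rank the Ptch1 and Gli3 promoters stood among the highest of the pathway in both lists, beside Gsk3b (top 0.206% and 0.160%), Jag1 and Cdk6.

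**Figure D4:**
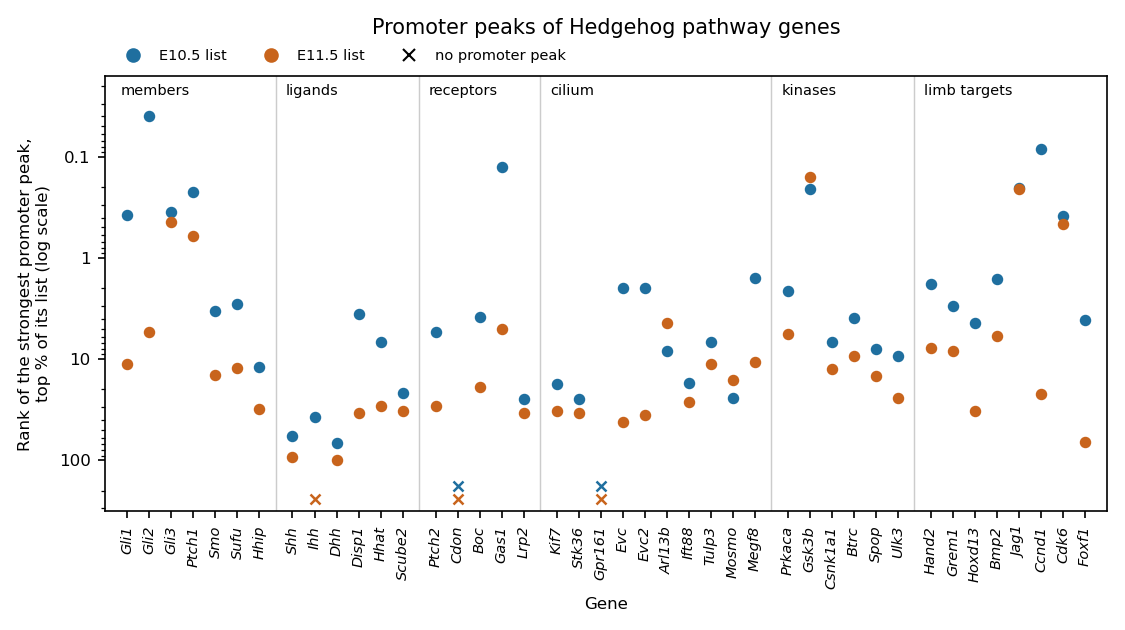
Rank of the strongest promoter peak of the 7 genes (marked members) and 35 other pathway genes, as top percent of its own list by signal (log axis, strongest at the top), with blue for E10.5 and orange for E11.5. Crosses mark genes without a promoter peak: Ihh in the E11.5 list, and Cdon and Gpr161 in both.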

How the data were processed

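Accessible chromatin of wild-type mouse limb cells was measured by ATAC-seq in 4 samples, grouped by stage from their titles. The authors deposited 1 narrowPeak list per stage (mm10). Cutadapt, Bowtie2, SAMtools, deepTools and Genrich are named per the submitters' processing notes, with no role given, and how replicates were combined or reads shifted for Tn5 is not given in the sources used here. The authors' signal value ranked the peaks. The authors' score equals signal per bp times a constant, capped, in 100% of peaks, and was not used. The deposited −log10 p was printed and used as a filter, and the deposited q column holds -1 in 100% of peaks.

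Start sites came from the RefSeq promoter table (17492 genes) or, where absent there, as for Gli1, from the gene's outer end (4044), with strand from GENCODE M1, whose NCBIM37 coordinates were not used. Of 21887 protein-coding genes 21536 had one. Exons, introns and UTRs in mm10 were not used here. Peaks were called promoter within 1 kb of a start, and shared at an overlap of 1 bp or more. Distances in kb run from the start to the nearest edge of a peak. All coordinates are 1-based. Shares have 95% Wilson intervals. No test was run, since each list joins its replicates and depth is unknown. Python 3.11.15, pandas 2.3.3, numpy 2.4.6 and scipy 1.17.1 were used, and the interval functions were tested on simulated intervals.

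For each of the 7 genes the text names all promoter peaks and the 3 strongest distal peaks of each list, and of the other pathway genes those with a promoter peak in 1 list or neither. The genes and lists were chosen with earlier results of these data known. Alternatives changed the peak threshold, number of peaks, window, promoter distance, overlap rule, ranking value and start site.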

Additional observations from a re-analysis of the deposited data

How the results depend on the processing

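All 7 genes kept a promoter peak in both lists under each setting tried: −log10 p of at least 5, lists of equal length by signal, promoters within 500 bp or 2 kb, and starts at outer gene ends, an alternative chosen after seeing the data. Counts of peaks moved with what was counted. With −log10 p of at least 5 the numbers were 88 (E10.5) and 40 (E11.5), within 50 kb 85 and 40, within 250 kb 301 and 116, and with the nearest start only 97 and 35. With lists of equal length the E10.5 count was 56. The overlapping share then moved to 75% at E10.5 and 77.0% at E11.5. With 50% reciprocal overlap it was 23.5% and 57.4%, and with summits within 100 bp 77.0% at E11.5. For distal peaks alone it was 28.7% at E10.5, beside 22.6% of such peaks in the list. Each of these settings by its construction changes which peaks or overlaps count. For equal length, reciprocal overlap and summits, the share over the whole lists is not given here. Those values thus describe the settings and not the genes. The E11.5 share was also below 100% with −log10 p of at least 5 (95%, beside 94.2% of the whole list so filtered) and within 250 kb (99.1%). Of 133 values computed under alternatives, 78 kept within 1.5 times the count or within the interval of the share, and 55 moved; of the 84 for single genes 40 moved, among them the E11.5 count of Gli3, from 11 to 3 with −log10 p of at least 5. Shares of single genes at that threshold and promoter ranks by other values were also added after seeing the data. No paired analysis was possible because replicates are merged within a list, for which reason none was dropped. Unknown depth limits what a missing weak peak can show.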
